A study of Mus musculus with 10 samples.

Results

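The mRNAs for the enzymes that turn prohormones into active peptides, and for the granins that fill secretory granules, were followed in RNA recovered with antibodies to Musashi from mouse pituitary. The set was chosen by name as Pcsk1, Pcsk2, Scg5, Cpe, Pam, Chga, Chgb, Scg2, Scg3 and Vgf, found in the counts table through their Ensembl gene IDs. These are 10 of 55416 genes, and all 10 passed the filter on low counts, as did 20550 genes in all. They lie on chromosomes 13 (Pcsk1), 2 (Pcsk2, Scg5 and Chgb), 8 (Cpe), 1 (Pam and Scg2), 12 (Chga), 9 (Scg3) and 5 (Vgf).

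The study asked which pituitary mRNAs are bound by Musashi1 and Musashi2, RNA-binding proteins that attach to UAG-containing motifs, mostly in 3′ UTRs, and alter the translation of their targets. All lysates came from control mice of the sighted FVB strain FVB.129P2-Pde6b+Tyrc-ch/Ant, aged 8 to 10 weeks, with 6 pituitaries per lysate. Each lysate was divided between rabbit IgG (the IgG group) and the pooled Musashi1 and Musashi2 antibodies (the Musashi IP group), so a library stands for a pool of mice, and the share of each Musashi protein cannot be told apart. The 10 libraries came from 3 female lysates (2, 5 and 6) and 2 male lysates (3 and 7). IgG recovers RNA that binds without specificity. It therefore gives the background here, and no library of unselected pituitary RNA was analysed.

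Peptide hormones are made as long precursors that are folded, cut and trimmed on the way to the granule. Prohormone convertases cut after pairs of basic residues, carboxypeptidase E removes the basic residues left behind, and peptidylglycine alpha-amidating monooxygenase converts a terminal glycine into an amide. Granins are acidic proteins that aggregate with the hormones in the trans-Golgi network, and some of them are precursors of peptides themselves. In the pituitary these proteins are best known for the processing of pro-opiomelanocortin in corticotropes and melanotropes and for hormone storage in gonadotropes.

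The sites at which a Musashi protein could bind come first, because Cpe and Scg2 carry them densely and the other members do not. The motif was a G or an A, then 1 to 3 U, then AGU, with GUAGU as its shortest form and AUUUAGU as its longest, searched on the mRNA strand alone of the longest annotated 3′ UTR. The lines below give 30 bases around sites of these genes in the order in which they follow the stop codon, 5′ to 3′, as cDNA with T for U and the motif in capitals. The second site of Cpe holds 2 motifs that overlap.
Cpe site 1: ctatctatagactGTAGTaagatgcaatgt
Cpe site 2: tcatttaagtaATAGTTAGTaatcacgtaa
Cpe site 3: ctgcgagaatcacATAGTtccatataagtt
Cpe site 4: gaatggaattgtATTAGTcagcctgttaat
Scg2 site 1: aaagatatctatgATAGTgttggctaatgt
Scg2 site 2: tttgttactgtctGTAGTgttttgtggagt
Scg2 site 3: gcattataaatatATAGTtttacttataag
For contrast, the single sites of Pam and Scg5 and the first site of Pcsk2, which has 4, are shown.
Pam site 1: tctttatatgaacGTAGTgtagagaagctg
Scg5 site 1: tgattttgattatGTAGTgtatctagccct
Pcsk2 site 1: tggtttggtttgGTTTAGTtttgattttga

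The 3′ UTR of Cpe held 5 motifs in 581 bases, or 8.61 per kb. Only 1.05% of the 1233 3′ UTRs within 20% of its length held as many, and 51.4% of them held any. Over all 13789 3′ UTRs of at least 100 bases among the protein-coding genes tested, 74.6% held a motif, the median was 1.44 per kb, and 66 of them (0.479%) were at or above the density of Cpe. Scg2 followed with 3 motifs in 482 bases, or 6.22 per kb, and 5.67% of 1059 3′ UTRs of like length held as many.

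The convertase mRNAs had long 3′ UTRs with motif counts common for their length. Pcsk1 held 5 motifs in 2542 bases and Pcsk2 held 4 in 2474, where 46.3% and 57.7% of 3′ UTRs of like length held at least as many. Pam held 1 in 716 bases, Scg5 held 1 in 439 and Vgf held 1 in 512, and the shares of 3′ UTRs of like length with any motif were 59.9%, 41.6% and 48.1%. The 3′ UTRs of Chga (335 bases) and Chgb (250 bases) held none, which was the usual state at those lengths, since 31.8% and 25.3% of like 3′ UTRs held one. Scg3 held none in its longest 3′ UTR (659 bases, where 56.3% of like 3′ UTRs held one), but held 2 in the 637-base 3′ UTR of its first-ranked transcript. In all, 7 of the 10 mRNAs held a motif in the longest 3′ UTR, 8 of 10 did in the 3′ UTR of the first-ranked transcript, and all 10 held the bare core UAG. A match of letters describes the sequence and was not tested as a binding site.

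**Figure D1:**
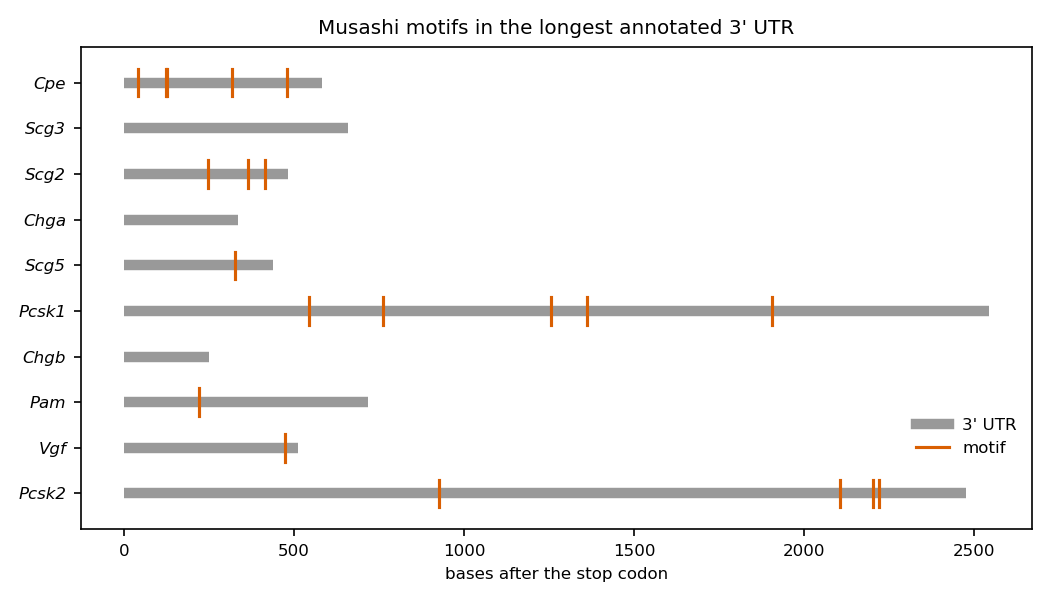
Positions of Musashi motifs (orange) along the longest annotated 3′ UTR (grey bars, in bases after the stop codon), with the genes ordered by their fold change in Musashi IP over IgG. Cpe has 5 motifs within 581 bases and Scg2 has 3 within 482. Pcsk1 has 5 in 2542 bases and Pcsk2 has 4 in 2474, and the Pcsk2 motifs at bases 2105, 2202 and 2219 lie close together. Chga, Chgb and Scg3 have none.

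The libraries held 6.67 to 9.35 M counts with IgG and 8.74 to 13.0 M with Musashi IP. Female and male labels matched the libraries: Xist, which is transcribed from the inactive X chromosome, had at least 29638 counts in each female library and at most 56 in each male one. The pituitary label held too, since hormone genes such as Gh and Prl were among the most abundant mRNAs, and the marker lists were read in Musashi IP against IgG. Of 8 hormone cell markers, 2 were enriched (Fshb and Pitx1), as was 1 of 3 stem or progenitor markers (Sox9), while 2 of 3 immune markers (Ptprc and Csf1r) and 2 of 3 erythroid markers (Hba-a1 and Hbb-bs) were lower. None of 5 endothelial or 4 mural and fibroblast markers passed the test. Their part in the results of the members was not tested. Musashi IP of lysate 6 stood apart. It was the deepest library, the log2 ratios to IgG had an interquartile range of 1.35 there against 0.51 to 0.69 in the other lysates, and 50.4% of the protein-coding genes tested had their highest ratio in that lysate. Each call of Musashi IP against IgG among the members, the other processing genes, the precursors and the hormones is given with and without it.

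The members differed in level even before the antibodies were compared. As CPM (counts scaled by library size) divided by exon length in kilobases (RPKM), a scale that allows for length, the order in IgG was Chgb (209 ± 118, SD, n = 5), Scg2 (144 ± 71.2), Scg5 (121 ± 60.5), Cpe (54.0 ± 22.9), Chga (52.7 ± 25.5), Scg3 (41.1 ± 14.3), Pam (34.1 ± 5.42), Pcsk1 (12.3 ± 4.23), Pcsk2 (11.9 ± 6.49) and Vgf (0.822 ± 0.599). Neighbours in that order lay within a SD of each other, except for the steps from Scg5 to Cpe, from Pam to Pcsk1 and from Pcsk2 to Vgf. In Musashi IP the levels of Cpe (124 ± 39.3 RPKM) and Scg5 (141 ± 35.0) lay within a SD of each other. Together the 10 genes took 0.220 ± 0.0576% of the counts with IgG and 0.243 ± 0.0612% with Musashi IP.

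Musashi IP was then compared with IgG in the 5 lysates, with the lysate as a block. Cpe and Scg3 were enriched, by 2.33-fold and 1.46-fold, and no member was lower. These 2 of 10 members compare with 18.5% of all genes tested that were enriched (3804 of 20550) and 8.40% that were lower (26.9% in either direction), and among protein-coding genes with 25.7% enriched and 4.01% lower. Among genes at 50 CPM or more in IgG, where all members but Vgf lie, 27.4% were enriched and 8.68% lower. The share of members called was thus near the background. No member had every Musashi IP library above every IgG library, as 9.69% of the genes tested did, or every one below, as 1.98% did. The median log2 fold change was 0.22 over the 10 members, 0.09 over the protein-coding genes and -0.07 over all genes.

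**Figure D2:**
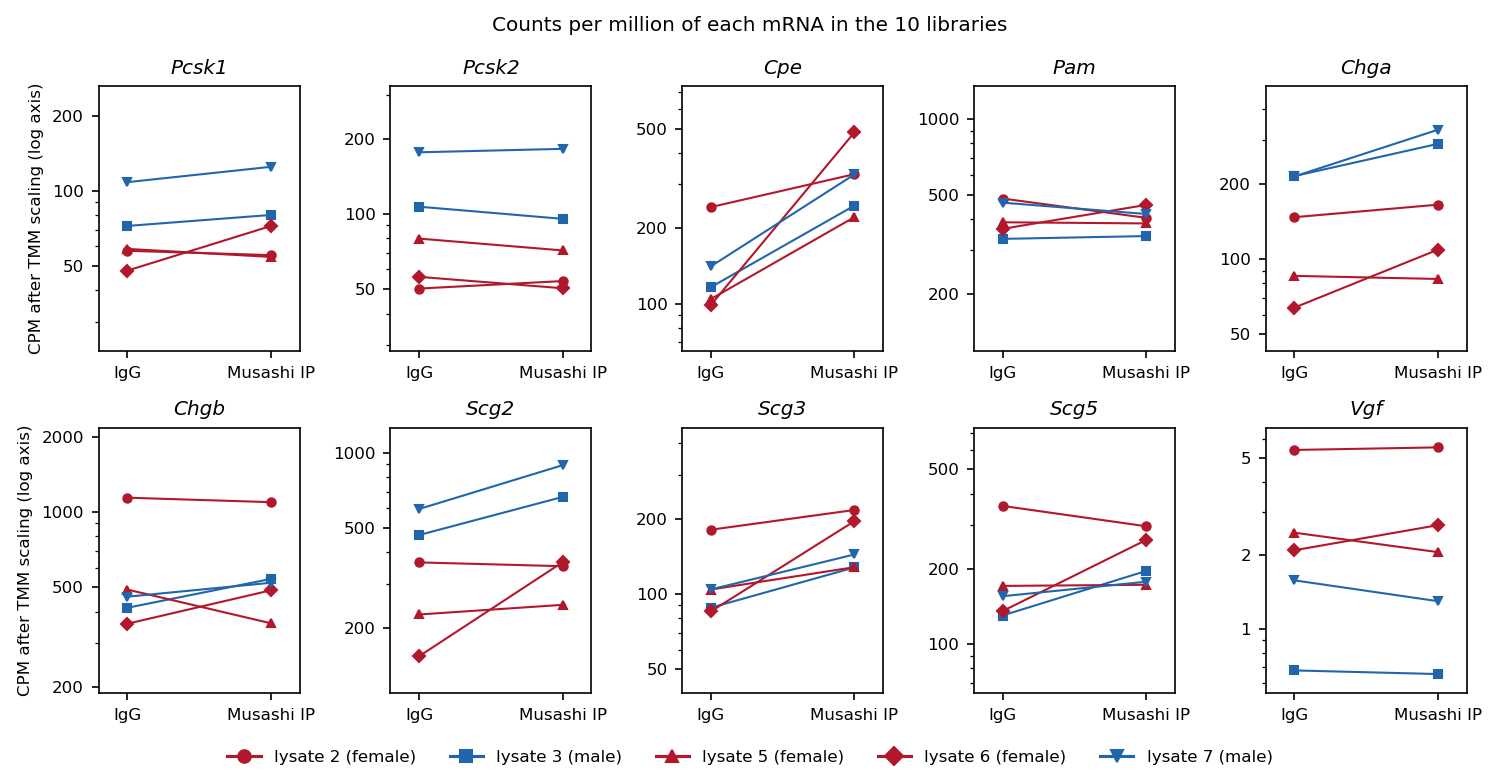
CPM after TMM scaling (log axis) of each mRNA in the IgG and Musashi IP library of every lysate, with lines joining the libraries of a lysate. Cpe is higher with Musashi IP in all 5 lysates, and Pcsk2 lies close to level in each. The male lysates 3 and 7 lie above the female ones for Pcsk1, Pcsk2, Chga and Scg2. The share of all genes that separate the sexes in this way was not computed.

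The convertases act first in the pathway, and neither of their mRNAs passed the test. Pcsk1 encodes prohormone convertase 1/3, which makes the early cuts in pro-opiomelanocortin. It stood at 57.6, 72.5, 58.6, 48.0 and 108 CPM in IgG of lysates 2, 3, 5, 6 and 7, and at 55.4, 80.2, 54.5, 72.4 and 125 CPM in Musashi IP. The groups overlapped, male lysate 7 was the highest in both, and Musashi IP was above IgG in 3 of 5 lysates. Its log2 fold change was 0.16 ± 0.12 (SE; edgeR, adjusted p = 0.337).

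Pcsk2 encodes prohormone convertase 2, which makes the later cuts that yield alpha-melanocyte-stimulating hormone. It stood at 50.3, 107, 79.7, 56.1 and 177 CPM in IgG and at 53.9, 95.7, 71.5, 50.5 and 182 CPM in Musashi IP, in the same order of lysates. The lysates spread over more than 3-fold within each antibody, but IgG and Musashi IP of a lysate were close, with log2 ratios from -0.16 to 0.10. Its log2 fold change was -0.06 ± 0.09 (edgeR, adjusted p = 0.608), the lowest of the 10. Pcsk2 overlaps the antisense genes Pcsk2os1 (82 to 270 counts) and Pcsk2os2 (44 to 181 counts), neither of which passed the test. The genes with lysate ratios closest to those of Pcsk2, by Euclidean distance over the 5 lysates among 10930 protein-coding genes at 8 CPM or more, were Smarcal1 (distance 0.0525), Myo5c (0.0653) and Gmeb1 (0.0675).

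Scg5 encodes 7B2, the chaperone that proPC2 needs to mature. It stood at 357, 130, 171, 136 and 156 CPM in IgG and at 296, 196, 173, 261 and 178 CPM in Musashi IP. IgG of lysate 2 was the highest of all 10 libraries, and the ratio was above 0 in the other 4 lysates only. The log2 fold change was 0.29 ± 0.17 (edgeR, adjusted p = 0.206), and 0.13 without lysate 6 (adjusted p = 0.461). The ratio of Pcsk2 was below that of its chaperone in 4 of 5 lysates, by 0.36 ± 0.57 log2 units on average (SD, n = 5; exact sign-flip test, two-sided, p = 0.312).

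Cpe encodes carboxypeptidase E, which trims the ends that the convertases expose. It stood at 243, 116, 104, 98.8 and 141 CPM in IgG and at 330, 247, 222, 484 and 329 CPM in Musashi IP. Musashi IP was above IgG in every lysate, although IgG of lysate 2 reached into the range of Musashi IP, so the groups overlapped. The log2 ratios were 0.44, 1.08, 1.09, 2.29 and 1.22, with lysate 2 lowest and lysate 6 highest.

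The fitted log2 fold change of Cpe was 1.22 ± 0.22 (edgeR, adjusted p = 0.00685), which is higher than that of 95.4% of all genes tested and of 93.7% of protein-coding genes. A ratio above 0 in all 5 lysates was found for 22.4% of the genes tested. Without lysate 6 the log2 fold change was 0.96, and it stayed past the threshold in all 14 alternative settings, between 0.96 and 1.42, with an adjusted p of at most 0.0170. The genes with lysate ratios closest to those of Cpe, by the same distance as for Pcsk2, were Naa50 (distance 0.153), Triap1 (0.198) and Pank3 (0.248).

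Pam encodes the enzyme that amidates peptides, the last step of the pathway. It stood at 482, 332, 387, 365 and 464 CPM in IgG and at 403, 341, 383, 454 and 418 CPM in Musashi IP. The ranges overlapped widely, and Pam had the most even levels of the set across lysates. The log2 fold change was -0.01 ± 0.10 (edgeR, adjusted p = 0.927), but with a correction for transcript length and GC content it was -0.27 (adjusted p = 0.0436). Genes annotated on the same strand inside the Pam locus were lower. B230216N24Rik changed by -0.34 (edgeR, adjusted p = 0.0464), Gm37140 by -0.71 (adjusted p = 0.00639) and Gm3531, at 10 to 20 counts, by -0.72 (adjusted p = 0.0485). Whether their reads were counted apart from those of Pam is not given in the sources used here.

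The ratios of the trimming and the amidating enzyme were compared within each lysate. Cpe exceeded Pam by 0.69, 1.04, 1.10, 1.97 and 1.37 log2 units in lysates 2, 3, 5, 6 and 7, a mean of 1.24 ± 0.48 (SD, n = 5). The difference was above 0 in 5 of 5 lysates (exact sign-flip test, two-sided, p = 0.0625, the smallest that 5 lysates can give; 0.125 adjusted over the 4 pairs of members compared). Such a difference within a lysate does not depend on how libraries are scaled. By the same test the ratio of Pcsk1 was above that of Pcsk2 by 0.22 ± 0.34 (above 0 in 4 of 5 lysates, exact p = 0.188, adjusted 0.25).

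**Figure D3:**
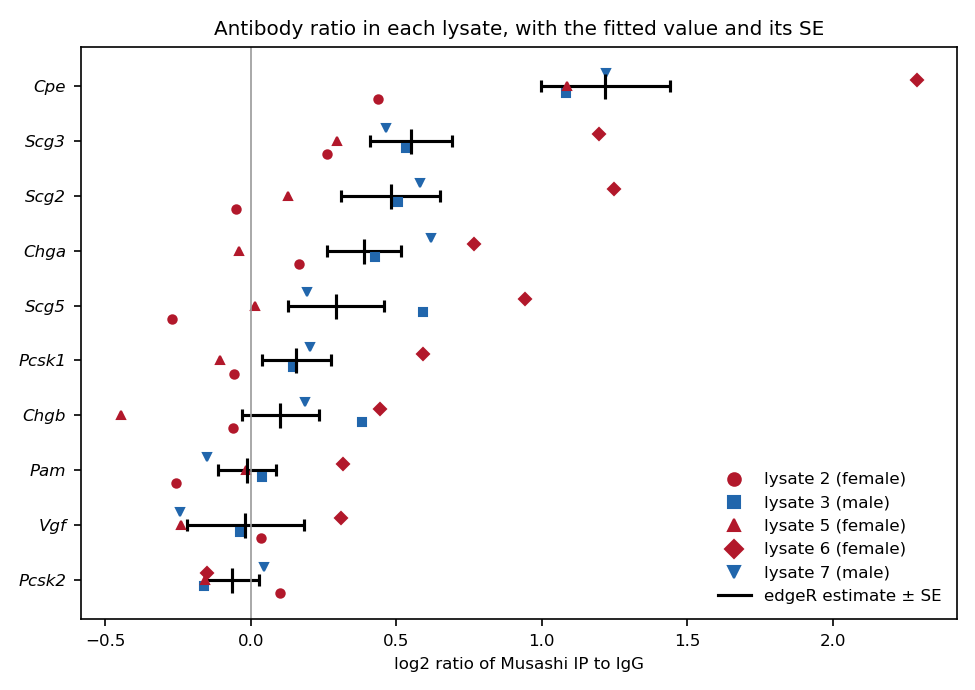
Log2 ratio of Musashi IP to IgG in each of the 5 lysates (coloured marks) with the edgeR estimate ± SE (black), ordered by the estimate. Cpe and Scg3 lie above 0 in all 5 lysates, lysate 6 gives the highest ratio for 9 of the 10 mRNAs, and Pcsk2 lies between -0.16 and 0.10.

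Among the granins, Scg3 alone passed the test. Secretogranin III binds cholesterol in the granule membrane and holds the aggregates of chromogranin A there. It stood at 181, 88.2, 104, 85.2 and 104 CPM in IgG and at 217, 128, 128, 196 and 144 CPM in Musashi IP. Musashi IP was higher in every lysate, while IgG of lysate 2 was above 3 of the Musashi IP libraries. The log2 fold change was 0.55 ± 0.14 (edgeR, adjusted p = 0.0226). The call was lost without lysate 3 (0.46, adjusted p = 0.0662), without lysate 7 (0.50, 0.0710) and without the lysate block (0.53, 0.157). It was kept without lysate 6 (0.39, adjusted p = 0.00423). Scg3 has an antisense partner, Gm37871, of 8 to 26 counts.

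Chga and Chgb encode the chromogranins A and B, which drive the aggregation of granule cargo. Chga stood at 147, 215, 85.7, 64.0 and 214 CPM in IgG and at 165, 289, 83.3, 109 and 329 CPM in Musashi IP. Musashi IP was higher in all lysates but lysate 5, and the groups overlapped. Its log2 fold change was 0.39 ± 0.13 (edgeR, adjusted p = 0.0511), just outside the threshold. It came inside in 4 of 14 alternative settings, with an adjusted p of 0.0407 with limma-voom, 0.0183 with no filter on low counts, 0.0478 without lysate 2 and 0.0305 without lysate 5. It moved away with library totals (0.21, adjusted p = 0.148), with the length and GC correction (0.26, 0.116), without lysate 3 (0.29, 0.172), without lysate 7 (0.26, 0.241) and without the lysate block (0.43, 0.528).

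Chgb was the most abundant member per length. It stood at 1141, 414, 490, 358 and 459 CPM in IgG and at 1095, 540, 359, 486 and 521 CPM in Musashi IP. Both libraries of lysate 2 stood far above the rest, and the ratio was above 0 in 3 of 5 lysates. Chgb gave a log2 fold change of 0.10 ± 0.13 (edgeR, adjusted p = 0.576). The ratio of Chga was above that of Chgb in 5 of 5 lysates, by 0.29 ± 0.16 log2 units (SD, n = 5; exact sign-flip test, two-sided, p = 0.0625, adjusted 0.125).

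Scg2 encodes secretogranin II, the precursor of secretoneurin, which is abundant in gonadotropes. It stood at 365, 469, 226, 154 and 596 CPM in IgG and at 352, 667, 247, 366 and 893 CPM in Musashi IP. Lysate 2 alone had less in Musashi IP than in IgG, and lysate 6 had a log2 ratio of 1.25. In the fit, Scg2 gave 0.48 ± 0.17 (log2 fold change, edgeR, adjusted p = 0.0647). It passed in 2 of 14 alternative settings, without lysate 2 (0.62, adjusted p = 0.0273) and with no filter on low counts (0.49, 0.00321). It was 0.30 without lysate 6 (0.0585) and 0.31 with library totals (0.0909), and without the lysate block the adjusted p was 0.454.

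Vgf encodes a granin-like precursor of neuropeptides that rises with nerve growth factor in neurons. It stood at 5.39, 0.677, 2.48, 2.10 and 1.58 CPM in IgG and at 5.53, 0.654, 2.06, 2.66 and 1.30 CPM in Musashi IP, from 5 to 48 counts in a library. Lysate 2 was highest and lysate 3 lowest with both antibodies. The log2 fold change was -0.02 ± 0.20 (edgeR, adjusted p = 0.997), and with so few counts a change of the size seen for Chga could have been missed.

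**Figure D4:**
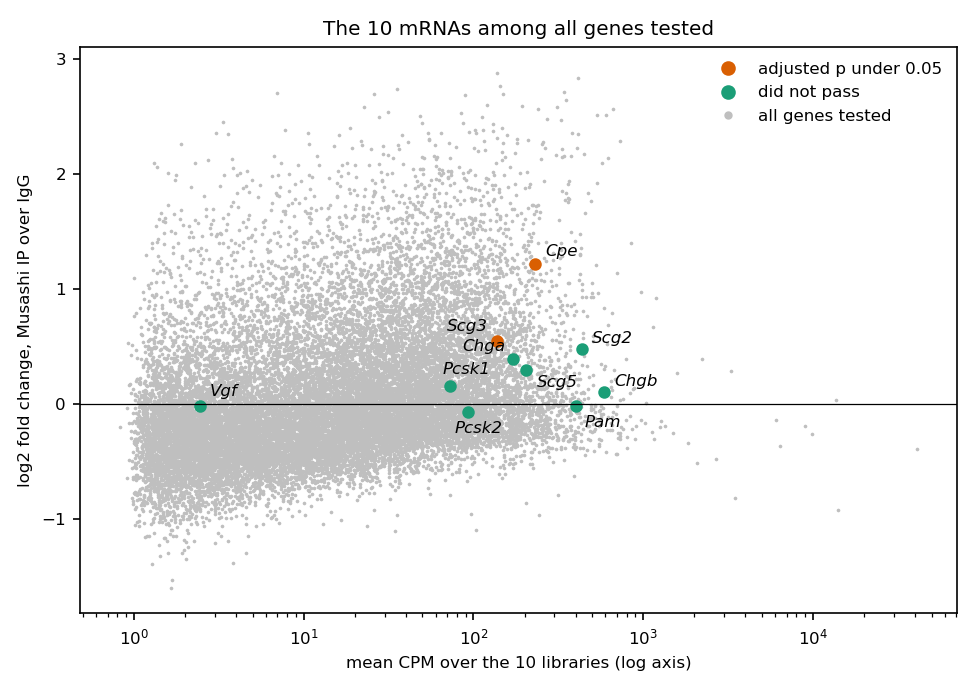
Log2 fold change of Musashi IP over IgG against mean CPM over the 10 libraries (log axis) for the 20550 genes tested (grey) and the 10 mRNAs (coloured by the edgeR test at an adjusted p of 0.05). Cpe lies at 1.22 and Scg3 at 0.55, and the other 8, from -0.06 to 0.48, did not pass.

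The other genes of propeptide processing were read from a list of 24, of which 22 were tested and Cpz and Cpn1 were too low. Of these, 4 were enriched, 1 was lower and 17 did not pass, with a median log2 fold change of 0.16. Pcsk6, a convertase of the constitutive pathway (PACE4), went from 292 ± 121 to 576 ± 272 CPM (SD, n = 5), a log2 fold change of 0.93 ± 0.15 (edgeR, adjusted p = 0.00497). Qpctl, a glutaminyl cyclase of the Golgi, went from 19.3 ± 3.32 to 43.0 ± 17.3 CPM (1.09 ± 0.21, adjusted p = 0.00773). Both were higher in 5 of 5 lysates, and both kept their calls without lysate 6 (0.76 and 0.85). Pcsk6 was 0.61 with the length and GC correction and did not pass in the fit with no block (adjusted p = 0.105).

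The remaining calls of that list were closer to the threshold. Cpd, a carboxypeptidase of the trans-Golgi network that acts on the same kind of ends as Cpe, rose by 0.51 ± 0.16 (edgeR, adjusted p = 0.0460), and Pcsk1n, which encodes the Pcsk1 inhibitor proSAAS, rose by 0.45 ± 0.14 (adjusted p = 0.0419). Cpd lost its call in 7 of 14 alternative settings, though not without lysate 6 (0.34, adjusted p = 0.0379). Pcsk1n lost it in 10 of 14, with 0.37 without lysate 6 (0.0541) and 0.25 without lysate 3 (0.194). Cpxm1, a carboxypeptidase-like protein without known activity, was lower, from 3.12 ± 1.65 to 1.39 ± 0.995 CPM (-1.19 ± 0.32, adjusted p = 0.0263). It lost its call in 4 of 14 alternative settings, without the lysate block (adjusted p = 0.166) and without lysate 2 (0.0532), 5 (0.0937) or 7 (0.0839), and kept it without lysate 6 (-1.34). The most abundant genes that did not pass were Gnas, which encodes a G protein subunit and the granin-like NESP55 (-0.19 ± 0.12), the granule membrane proteins Ptprn2 (0.09 ± 0.08) and Ptprn (-0.03 ± 0.09), and the site-1 protease Mbtps1 (0.14 ± 0.10).

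The peptide precursors on which these enzymes act were mostly too low to test, as 7 of 22 passed the filter and 3 (Nts, Npy and Gast) had no count in any library. Pdyn, the prodynorphin precursor, went from 3.11 ± 1.23 to 11.5 ± 2.90 CPM (SD, n = 5), a log2 fold change of 1.89 ± 0.28 (edgeR, adjusted p = 0.00398), and 1.60 without lysate 6. Vip rose by 1.10 ± 0.36 (adjusted p = 0.0494) on 1 to 106 counts per library, and lost its call in 7 of 14 alternative settings, with 0.58 without lysate 6 (adjusted p = 0.217). The main substrate in this tissue, Pomc, stood at 722 ± 360 CPM in IgG and 735 ± 373 in Musashi IP (log2 fold change 0.04 ± 0.10, adjusted p = 0.800). Gal (0.29 ± 0.20), Bdnf (0.12 ± 0.14) and Nmb (-0.39 ± 0.21) did not pass. The median of the 7 was 0.22. Of 6 hormones listed that are not made by these convertases, Lhb had no count in any library and 5 were tested. How reads were assigned to the gene ID of Lhb is not given in the sources used here. The missing counts therefore do not show that its mRNA is absent. Fshb was enriched (2.28 ± 0.37, edgeR, adjusted p = 0.00492), with 1.88 without lysate 6 and an adjusted p of 0.0649 in the fit with no block. Gh, Prl, Cga and Tshb did not pass.

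Female and male pituitaries were compared next, within each antibody. The RNA was immunoprecipitated from bulk tissue, so fewer cells of a type, less RNA per cell and lower recovery cannot be told apart. With IgG, Pcsk2 and Chga were lower in females, 2 of 10 members, against 4.50% of all genes called in either direction and 1.84% called lower in females. Pcsk2 averaged 62.0 CPM in the 3 female lysates and 142 in the 2 male ones, a log2 difference of -1.20 ± 0.24 (edgeR, adjusted p = 0.0164). Chga averaged 99.0 and 215 CPM (-1.12 ± 0.27, adjusted p = 0.0408). Each female value of these genes lay below each male value, but the share of all genes that separate in this way was not computed.

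The same lysates gave a like picture with Musashi IP, where Chga and Scg2 were lower in females, against 2.84% of all genes called in either direction and 0.946% called lower in females. Chga averaged 119 CPM in females and 309 in males (-1.38 ± 0.31; edgeR, adjusted p = 0.0459), and Scg2 averaged 321 and 780 CPM (-1.29 ± 0.27, adjusted p = 0.0337). The remaining values of these genes missed the threshold: Pcsk2 in Musashi IP gave -1.26 ± 0.30 (adjusted p = 0.0554) and Scg2 in IgG gave -1.11 ± 0.29 (adjusted p = 0.0518). Pcsk1 gave -0.73 ± 0.20 in IgG (adjusted p = 0.0619) and -0.78 ± 0.25 in Musashi IP (adjusted p = 0.152). As both antibodies drew on the same lysates, the comparisons are not independent of each other.

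No other member passed in either comparison. Cpe (0.20 ± 0.33 in IgG), Pam (0.04 ± 0.20) and Scg3 (0.35 ± 0.27) were nearest to 0. Chgb (0.60 ± 0.38), Scg5 (0.62 ± 0.33) and Vgf (1.54 ± 0.57, edgeR, adjusted p = 0.186) had higher means in females, with lysate 2 the highest library for each. The calls rested on few lysates. With IgG, Pcsk2 was not called without male lysate 7 (-0.79, adjusted p = 0.282), and Chga was not called without lysate 3, 5, 6 or 7 (-1.12, -1.03, -0.89 and -1.12, adjusted p from 0.0503 to 0.282). With Musashi IP, Chga was not called without lysate 3, 5, 6 or 7 (adjusted p from 0.0594 to 0.178), nor Scg2 without lysate 3, 5 or 7 (0.0889 to 0.289). The sign of both genes, and of Pcsk2 and Pcsk1, was negative in each of the 8 alternatives run within each antibody.

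**Figure D5:**
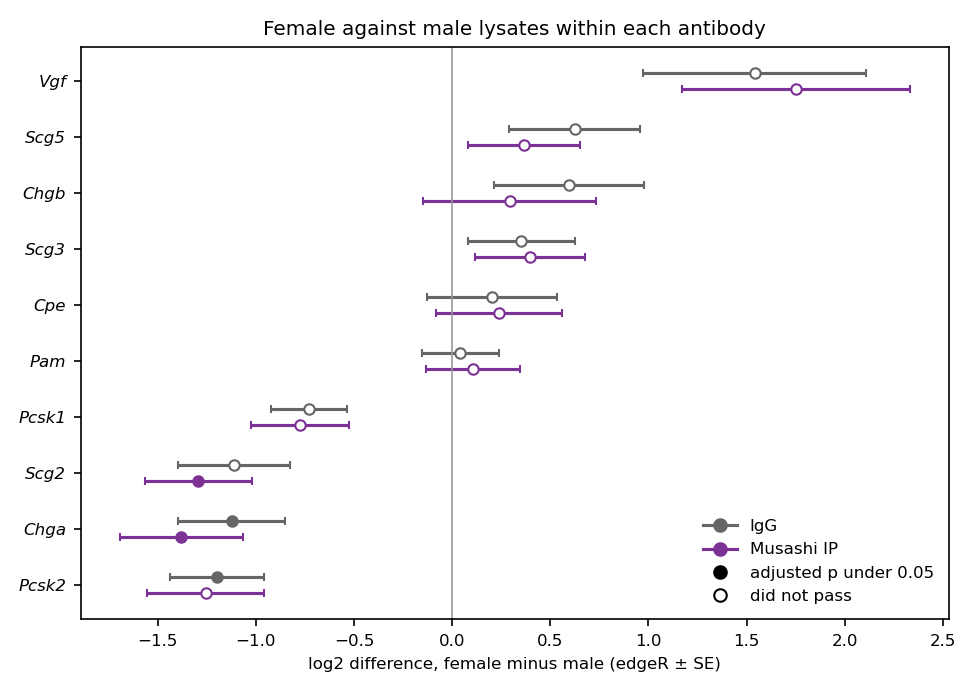
Female minus male log2 difference ± SE within IgG (grey) and within Musashi IP (purple) for each mRNA, from 3 female and 2 male lysates, with filled marks for an adjusted p under 0.05 by edgeR. Pcsk2, Chga, Scg2 and Pcsk1 lie below 0 with both antibodies, and Pcsk2 (IgG), Chga (both) and Scg2 (Musashi IP) pass.

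Genes of other hormone cells moved with sex in the same libraries. Within IgG, Fshb ran from 17.9 to 37.3 CPM in females and from 157 to 172 in males (log2 difference -2.43 ± 0.26), Tshb from 16.1 to 23.0 and from 48.9 to 50.1 CPM (-1.42 ± 0.20), and Prl from 12054 to 39299 and from 1538 to 3071 CPM (3.27 ± 0.52). Of the 8 hormone cell markers, 1 was higher and 2 were lower in females, and their median log2 difference was -0.91. Pomc gave -0.87 ± 0.36 (edgeR, adjusted p = 0.250). The summed level of the 8 was 16115 to 51741 CPM in females and 13261 to 22028 in males, but Prl and Gh made up most of it. None of the 5 endothelial, 4 mural and fibroblast, 3 immune or 3 erythroid markers was called. Their median log2 differences within IgG were 1.15, 0.42, -0.09 and 0.38, in that order. Within Musashi IP the median of the endothelial markers was -0.23. The part of all these markers in the differences of Pcsk2, Chga and Scg2 was not tested. Among the other processing genes, Pcsk5 (1.47 ± 0.26), Pcsk6 (1.11 ± 0.19) and the carboxypeptidase-like Aebp1 (6.15 ± 0.54, 178 to 642 CPM in females and 4.74 to 5.93 in males) were higher in females within IgG, and Gnas (-1.05 ± 0.20) was lower.

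The effect of the antibody itself was not shown to differ by sex. A test of the female minus male difference of the log2 fold change called 0% of genes (0 of 22601 by edgeR, with 1.31% at an unadjusted p under 0.05), and every member had an adjusted p of 1. The differences ran from -0.33 ± 0.28 for Chgb to 0.23 ± 0.54 for Vgf. For Cpe the mean log2 ratio was 1.27 in the 3 female lysates and 1.15 in the 2 male ones, a difference of 0.09 ± 0.43 in the fit.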

How the data were processed

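Immunoprecipitated RNA from mouse pituitary was sequenced in 10 libraries, 1 IgG and 1 Musashi IP library from each of 5 lysates. The labels mention 6 occasions, and the third male one is not analysed here. Libraries were made with a stranded total RNA kit, per the labels' protocols. The authors deposited a table of unnormalized counts, in whole reads per Ensembl gene. Per the submitters' processing notes, FastQC 0.11.8, Trimmomatic 0.39 and STAR 2.7.1a were used with build GRCm39. How reads were counted (program, annotation, strand setting, multiply mapped reads) is not given in the sources used here. IDs were matched to GENCODE M21 on GRCm38 (52135, 94.1%), so no coordinates are given.

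Tests ran on the counts in R 4.3.3 with edgeR 4.0.16 (filterByExpr, TMM scaling, quasi-likelihood test), with Benjamini-Hochberg adjustment over all genes tested at 0.05. Musashi IP was compared with IgG in a model blocked on lysate, with 4 residual degrees of freedom. The sexes were compared within each antibody (3 residual degrees of freedom), and the sex difference of the antibody effect was fitted with the block. The SE is the log2 fold change divided by the square root of F. CPM include the TMM factors. A lysate's own log2 ratio has a prior count of 2. RPKM used the union of annotated exons. The edgeR fits of the antibody effect, of its sex difference and of the sexes within IgG were also run on simulated counts. These counts had the same dispersion for all genes and no antibody effect that differed between lysates of a sex. They therefore do not cover such differences. Alternatives used DESeq2 1.42.0 size factors and test, limma 3.58.1, library totals, other filters, protein-coding genes only, no block, a correction for length and GC content (mgcv 1.9.3), and the omission of each lysate.

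The lysate number pairs the libraries because each lysate was split, per the labels' protocols. Deviations from the group means correlated at 0.523, 0.679, 0.602, 0.186 and 0.778 within lysates 2, 3, 5, 6 and 7. The highest correlation with a library of another number was 0.415, 0.539, 0.251, 0.415 and 0.461, above that of its own pair for lysate 6. The lysates of a sex were prepared on separate occasions, per the labels. In the blocked test, p-values measure the spread of the antibody ratio across lysates. In the tests of sex within an antibody, they measure the spread between such pools. No molecular identifiers are described, so counts are not independent molecules, and 1 count equals 0.0768 to 0.150 CPM. The 10 members and the gene lists were chosen with earlier results of these data known. Named beside the members were the genes past the threshold in the lists of other processing genes and of precursors, up to 4 of the rest with the highest mean CPM, and the 3 genes nearest to the members with the largest and smallest fold change.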

Additional observations from a re-analysis of the deposited data

Results flagged for a closer look

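Among 30 groups of 5 values examined for a value far from the others, 4 held one, and chance gives about 1 in 20. All 4 came from female lysate 2, and the groups share libraries, so they are not independent of each other. Chgb was at 1141 CPM in its IgG library, against 358 to 490 in the other 4, and at 1095 CPM in its Musashi IP library, against 359 to 540. With IgG, Scg3 was at 180.8 CPM, against 85.2 to 104, and Scg5 was at 357.4 CPM, against 130 to 171. In IgG of lysate 2 the hormone cell markers summed to 51741 CPM, against 13261 to 23349 in the other 4 IgG libraries. Most of that sum was Prl, at 39299 CPM. In the same library the endothelial markers summed to 292 CPM, against 65.5 to 110. The mural and fibroblast markers summed to 157 CPM, against 41.4 to 73.0, and the erythroid markers to 1188 CPM, against 450 to 625. In the Musashi IP library of lysate 2 the sum of the hormone cell markers was 40235 CPM, against 14641 to 23970 in the other 4, and that of the endothelial markers was 59.6 CPM, against 59.8 to 122. Their part in the high values was not tested.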

How the results depend on the processing

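The fold of Cpe kept its direction and its call in all 14 alternatives, and no called value changed sign in any of them. The count of members enriched (2) was 4 with no filter, 1 with no replicate block, and 1 to 4 when a lysate was left out. With the length and GC correction 1 member was lower. Other processing genes enriched (4) numbered 2 with DESeq2 size factors, 2 with library totals, 1 without the block, 2 with the length and GC correction, and 2 to 5 when a lysate was left out, and those lower (1) numbered 2 with library totals, 0 without the block, 4 with the correction, and 0 to 1 when a lysate was left out. Precursors enriched (2) numbered 1 with DESeq2 size factors, with library totals and without the block, and 1 to 2 when a lysate was left out. Over all genes, 3804 enriched became 2407 without the block and 2288 to 4188 when a lysate was left out. The 1727 lower became 4107 with library totals, 3214 with the filter at 2 CPM, 176 without the block, 3143 with the correction, and 182 to 2100 when a lysate was left out. Members called between the sexes within IgG (2) numbered 4 with library totals, 7 with no filter, and 0 to 4 when a lysate was left out, and within Musashi IP (2) 1 with DESeq2 size factors, 4 with library totals, 4 with no filter, and 0 to 3 when a lysate was left out. Leaving out lysate 3 or 7 leaves 1 male, whose spread is assumed to match that of the females. Of all calls, 68.8% were enriched in the main setting and 43.4% with library totals, 51.6% with the filter at 2 CPM, 50.2% with the correction and 93.2% without the block. Library totals moved the median of all genes from -0.07 to -0.24 and that of the members from 0.22 to 0.05. The cause of these shifts was not tested. With 5 lysates the exact test cannot give less than 0.0625, and Vgf, at 5 to 48 counts, limits what depth can show.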
